A study of Homo sapiens with 9 samples.

Results

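The genes described here are INHBA and FST, which encode a subunit of the ligand activin A and its secreted antagonist follistatin, the inhibitors of DNA binding ID1, ID2 and ID3, and 5 genes for intracellular brakes on SMAD signalling, SKI, SKIL, SMAD6, SMAD7 and TGIF1. They are 10 of the 26186 genes in the count table, found by matching Ensembl identifiers without their version to these symbols in GENCODE release 29. All 10 passed the filter on low counts, as did 16235 genes in all. The list was chosen by pathway knowledge with measured differences between the CHAF1B hairpins and the control hairpin already in view. Differences of these 10 genes from the control are therefore given as a description, with levels, fold changes and standard errors (SE) but no p-values.

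The libraries were made from polyadenylated RNA of MCF10A cells, an established, non-tumorigenic line from human breast epithelium, and the series asked how transcript levels change on suppression of CAF-1, the chromatin assembly factor that places histones H3 and H4 on newly copied DNA. CHAF1B encodes a subunit of it. The 3 groups of 3 libraries carried pLKO.1 lentiviral vectors with a hairpin against green fluorescent protein (shGFP, the control) or 1 of 2 hairpins against CHAF1B (shCHAF1B-#1 and shCHAF1B-#2). Cells of every group received a lentivirus, were selected with 2 µg/mL puromycin and were collected on day 3 after infection, in a medium with horse serum, insulin, cholera toxin, EGF and hydrocortisone. The labels do not say whether the replicates came from separate cultures, so the p-values below reflect the spread between these libraries alone, and that spread may be technical.

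Library totals ranged from 24339914 to 31819468 counts. CHAF1B itself lay between 35.2 and 41.0 CPM (counts scaled to the library's size, with the TMM method, throughout) in the shGFP libraries and between 2.56 and 3.89 CPM in the 6 knockdown libraries. All 12 mammary epithelial markers had counts in every library, with summed levels from 12568 to 14921 CPM. Single markers moved in both directions under this sum. By edgeR's quasi-likelihood test for the mean of both hairpins, 4 rose and 6 fell (29.2% and 27.7% of all genes). Mean KRT5 fell from 7264 CPM in shGFP to 4082 with shCHAF1B-#1 and 4039 with shCHAF1B-#2. Mean LAMB3 rose from 1003 to 2789 and 2575 CPM. The summed level of 16 B lymphocyte markers was 298 CPM in shCHAF1B-#1 replicate 3, against 2.90 to 5.89 CPM in the other 8 libraries, and that library is left out in turn where a result is given without it.

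Activin A is a dimer of the protein made from INHBA; it binds activin receptors at the cell surface and leads to phosphorylation of SMAD2 and SMAD3, while follistatin binds the ligand and keeps it from its receptors. Bone morphogenetic proteins (BMPs) signal through SMAD1, SMAD5 and SMAD9, and ID genes are their classical early targets in many cells. ID proteins lack a DNA-binding region and hold basic helix-loop-helix (HLH) factors away from DNA. SMAD6 and SMAD7 block receptors and SMADs from inside the cell. SKI, SKIL and TGIF1 bind SMAD complexes on DNA and recruit corepressors. SMAD7 and SKIL are known as targets that the pathway itself switches on.

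Promoters of 9 of the 10 genes were found in RefSeq (GRCh38.p14), the first listed for each gene being used and each running from 250 bases before to 50 bases after a transcription start. The 4 shown are those of INHBA, SKIL, ID3 and SMAD6. INHBA and SKIL are among the 5 genes higher after knockdown, ID3 is the ID gene that was lower, and SMAD6 held the rarest motif found. Capitals mark every match on either strand to TGANGTCA (a cyclic AMP response element of the CREB/ATF factors, TGACGTCA, with any base in place of its first C), TGACTCA (AP-1), GTCTAGAC (the SMAD palindrome) and TATAAA (the TATA box). They lie at chr7:41703041-41703340 (minus strand) for INHBA, chr3:170357465-170357764 (plus) for SKIL, chr15:66701986-66702285 (plus) for SMAD6 and chr1:23559452-23559751 (minus) for ID3.
INHBA: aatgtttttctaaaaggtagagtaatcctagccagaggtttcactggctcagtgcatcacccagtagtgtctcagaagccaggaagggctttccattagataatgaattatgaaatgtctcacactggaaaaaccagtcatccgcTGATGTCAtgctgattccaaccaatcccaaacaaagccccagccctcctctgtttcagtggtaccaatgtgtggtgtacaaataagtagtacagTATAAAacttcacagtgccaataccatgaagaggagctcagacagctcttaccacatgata
SKIL: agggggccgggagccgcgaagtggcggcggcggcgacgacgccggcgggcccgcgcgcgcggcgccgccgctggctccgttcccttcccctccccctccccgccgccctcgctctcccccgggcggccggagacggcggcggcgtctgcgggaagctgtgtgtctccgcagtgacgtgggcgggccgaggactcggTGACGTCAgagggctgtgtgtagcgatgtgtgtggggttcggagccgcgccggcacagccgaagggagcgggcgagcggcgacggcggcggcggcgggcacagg
SMAD6: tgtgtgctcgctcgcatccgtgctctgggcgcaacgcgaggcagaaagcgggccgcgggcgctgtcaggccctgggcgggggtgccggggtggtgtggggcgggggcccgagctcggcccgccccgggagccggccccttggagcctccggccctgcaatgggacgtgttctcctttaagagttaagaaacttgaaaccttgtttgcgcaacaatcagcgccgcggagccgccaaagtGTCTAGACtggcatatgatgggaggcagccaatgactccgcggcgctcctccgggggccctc
ID3: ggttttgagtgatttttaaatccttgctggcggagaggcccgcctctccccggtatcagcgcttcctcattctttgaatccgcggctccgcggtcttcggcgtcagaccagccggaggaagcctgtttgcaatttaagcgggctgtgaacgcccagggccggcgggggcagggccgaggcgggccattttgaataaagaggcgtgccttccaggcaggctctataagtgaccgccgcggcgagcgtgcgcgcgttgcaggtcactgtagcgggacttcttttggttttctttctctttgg

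The SKIL promoter held a whole TGACGTCA, beginning 54 bases before the start, a motif present in 1.85% of the 35116 RefSeq promoters of this length. INHBA held the related TGATGTCA at 105 bases before the start. The looser form TGANGTCA, which includes the SKIL match and was added after these sequences had been seen, was in 7.72% of promoters and in 3 of the 9 genes, the other being TGIF1. GTCTAGAC lay in the SMAD6 promoter 12 bases before the start and in 0.202% of promoters. TATAAA was in the first promoter of INHBA and ID1 (11.5% of promoters), and the AP-1 letters TGACTCA were in none of the 9 first promoters (4.95% of promoters). The ID3 window shown has no capitals. The short SMAD box CAGAC was in 5 of the 9 genes and 45.3% of promoters, GGCGCC, the core bound by BMP SMADs, in 1 (SKIL) and 19.2%, the E-box CANNTG in 6 and 68.7%, and CCAAT in 6 and 34.6%. These matches describe letters only, and no binding was measured.

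The ligand gene INHBA was about 3 times its control level with both hairpins, and its antagonist FST was higher as well, by less. INHBA (chr7:41667168-41705834, minus strand) stood at 12.02, 9.89 and 12.07 CPM in the shGFP libraries, at 33.3, 33.9 and 34.7 CPM with shCHAF1B-#1 and at 34.8, 35.8 and 30.2 CPM with shCHAF1B-#2. The lowest knockdown library was far above the highest control library. The log2 fold change was 1.59 (SE 0.0844) with the first hairpin and 1.57 (SE 0.0849) with the second. The difference between these 2 changes does not use the control levels and could be tested, with a spread estimated from all 9 libraries. For shCHAF1B-#2 minus shCHAF1B-#1 it was -0.02 (95% interval -0.18 to 0.15, adjusted p = 0.949 by edgeR's quasi-likelihood test).

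FST (chr5:53480409-53487134, plus strand) was at 4.66, 4.66 and 4.35 CPM in shGFP, 7.93, 8.43 and 7.25 CPM in shCHAF1B-#1 and 7.73, 8.28 and 8.49 CPM in shCHAF1B-#2. Every knockdown library was again above every control library, and the control values were close together. The log2 fold change was 0.79 (SE 0.0963) and 0.84 (SE 0.0968), and the hairpins differed by 0.05 (95% interval -0.15 to 0.25, adjusted p = 0.845). In these bulk libraries, more cells that express a gene and more RNA per cell cannot be told apart.

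**Figure D1:**
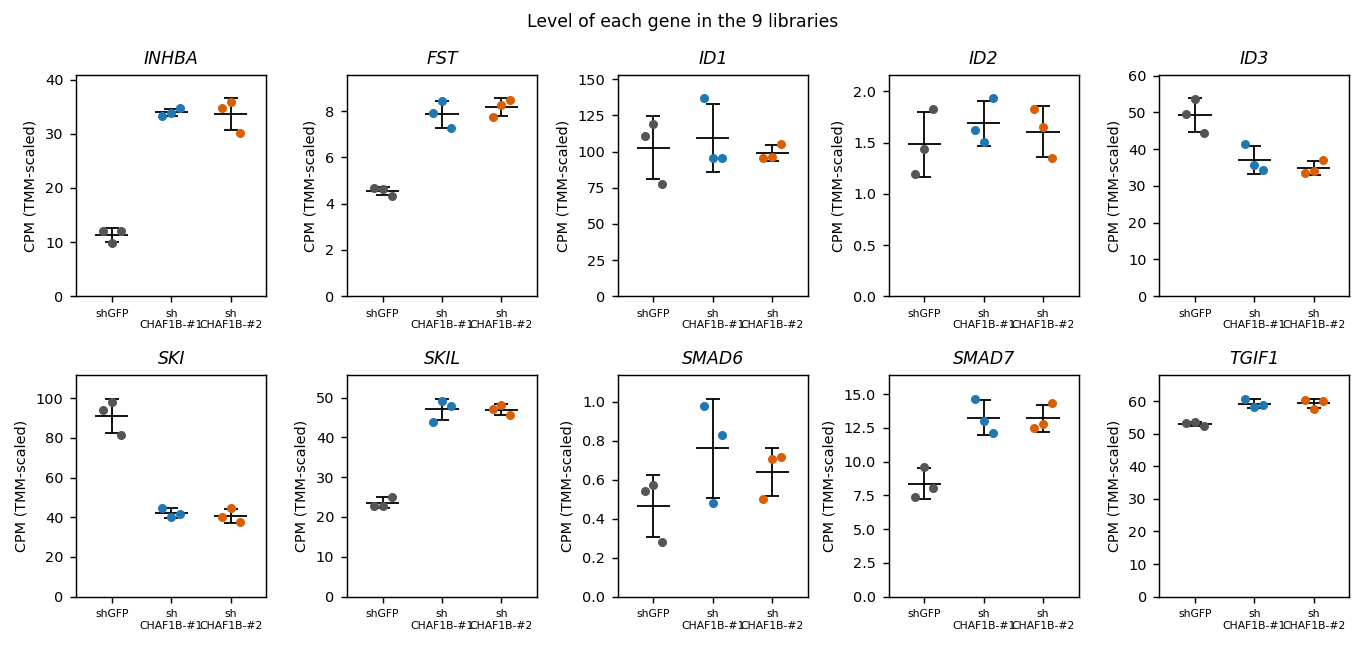
Level of each of the 10 genes in CPM (vertical axes, each starting at 0) in the 3 shGFP, 3 shCHAF1B-#1 and 3 shCHAF1B-#2 libraries; points are libraries, with the mean as a long bar and the SD as whiskers. INHBA, FST, SKIL, SMAD7 and TGIF1 lie higher in all 6 knockdown libraries, SKI and ID3 lower, and ID1, ID2 and SMAD6 overlap the control.

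Since ligand and antagonist both moved, their ratio was taken within each library, per kilobase of merged exons. INHBA over FST was 0.922, 0.759 and 0.992 in shGFP, 1.504, 1.44 and 1.71 in shCHAF1B-#1 and 1.61, 1.55 and 1.27 in shCHAF1B-#2. The transcript of the ligand subunit was thus the less abundant of the pair in all 3 control libraries and the more abundant in all 6 knockdown libraries. With the longest transcript as the length, INHBA lay at 1.87 and FST at 1.80 CPM per kb in shGFP with overlapping ranges, so which of them was higher in the control depends on the length used, while the increase of the ratio does not.

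The activin and nodal list held 23 further genes, of which 13 were tested. This list and the others below were, like the 10 genes, drawn up with earlier results of these data known. Their counts, medians and adjusted p-values are therefore descriptions and support nothing. The adjusted p-values show only which genes passed the threshold and are not independent tests. For the mean of both hairpins against shGFP, 6 passed upward and 2 downward, beside 29.2% up and 27.7% down over all genes, with a median log2 fold change of 0.19 beside -0.01 for all genes. SMAD3, the transcription factor of this branch, rose the most, from 50.02 ± 1.17 CPM (SD, n = 3) to 134 ± 3.30 with shCHAF1B-#1 and 122 ± 2.25 with shCHAF1B-#2 (log2 fold change 1.35, SE 0.0399, adjusted p = 9.1e-12). Its partners SMAD2 (0.18) and SMAD4 (0.19) rose by far less. Among the receptors, the type I receptor gene ACVR1B fell (log2 fold change -0.49, adjusted p = 9.2e-06) and the type II receptor gene ACVR2B rose (0.44, adjusted p = 8.7e-05). ACVR2A (-0.08, adjusted p = 0.309), ACVR1C (0.29, adjusted p = 0.546) and the accessory receptor TGFBR3 (-0.11, adjusted p = 0.141) did not pass.

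FSTL3, a follistatin-like antagonist of activin, rose (log2 fold change 0.46, adjusted p = 0.000105), as did the ligand GDF11 (0.36, adjusted p = 0.0016), whereas FSTL1, a more distant follistatin-like gene, fell (-0.90, adjusted p = 1.2e-08). INHA, whose product pairs with that of INHBA to form inhibin A, was near 1 CPM and did not pass (-0.32, adjusted p = 0.242). INHBB, the other major activin subunit gene, was under the filter, at 0.0119 CPM in shGFP. Among the activin subunit genes in the table, INHBA thus had most of the counts.

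Of the inhibitory SMADs, SMAD7 was higher in every knockdown library and SMAD6 was barely expressed. SMAD7 (chr18:48919853-48952052, minus strand) was at 7.40, 9.64 and 8.03 CPM in shGFP, 14.7, 13.01 and 12.1 CPM in shCHAF1B-#1 and 12.5, 12.8 and 14.4 CPM in shCHAF1B-#2. The groups did not overlap. Its log2 fold change was 0.66 with each hairpin (SE 0.109 and 0.110), and the hairpins differed by less than 0.01 (95% interval -0.23 to 0.22, adjusted p = 0.989).

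SMAD6 (chr15:66702228-66782848, plus strand) had 14, 16 and 8 counts in the shGFP libraries, 24, 15 and 21 in shCHAF1B-#1 and 12, 18 and 17 in shCHAF1B-#2. These are 0.540, 0.573 and 0.281 CPM in the control against 0.481 to 0.976 CPM after knockdown, and the ranges overlapped. The log2 fold changes were 0.69 (SE 0.338) and 0.47 (SE 0.353), with the largest standard errors of the 10 genes. Leaving out shCHAF1B-#1 replicate 2 gave 0.96 for the first hairpin and 0.71 for the mean, and SMAD6 was then among the called genes. Leaving out shGFP replicate 3, the control library with 8 counts, gave 0.42 for the first hairpin, 0.20 for the second and 0.31 for the mean. SMAD6 was not called in that setting. The hairpins differed by -0.22 (95% interval -0.92 to 0.48, adjusted p = 0.812). SMAD7 over SMAD6 per kilobase ranged from 23.3 to 48.7 in shGFP and from 24.9 to 46.1 after knockdown, without separation. The nearest tested coding gene downstream of SMAD6, 281 kb away, is SMAD3, the gene that rose most in the activin list.

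The corepressor genes SKI and SKIL are close relatives and moved in opposite directions by similar factors. SKI (chr1:2228695-2310119, plus strand) was at 94.1, 97.9 and 81.4 CPM in shGFP, 44.8, 40.1 and 41.6 CPM in shCHAF1B-#1 and 39.9, 44.6 and 37.5 CPM in shCHAF1B-#2. Every knockdown library was far below the lowest control library. The log2 fold change was -1.11 (SE 0.0776) and -1.16 (SE 0.0782), which leaves 46.3% and 44.6% of the control level. The hairpins differed by -0.05 (95% interval -0.22 to 0.12, adjusted p = 0.820).

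SKIL (chr3:170357678-170396835, plus strand) was at 22.8, 22.9 and 25.1 CPM in shGFP, 43.9, 49.1 and 48.0 CPM in shCHAF1B-#1 and 47.1, 48.2 and 45.5 CPM in shCHAF1B-#2. The groups were again separate, with knockdown levels at 199% of the control for both hairpins (log2 fold change 0.99 each, SE 0.0611 and 0.0614). The hairpins differed by less than 0.01 (95% interval -0.13 to 0.12, adjusted p = 0.987).

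Per kilobase of merged exons, SKI over SKIL was 5.28, 5.48 and 4.15 in shGFP, 1.31, 1.05 and 1.11 in shCHAF1B-#1 and 1.08, 1.183 and 1.06 in shCHAF1B-#2. SKI was several times as abundant as its relative in the control and nearly level with it after knockdown. The sum of both was 18.02 ± 1.26 CPM per kb (SD, n = 3) in shGFP, 12.98 ± 0.0645 with shCHAF1B-#1 and 12.7 ± 0.756 with shCHAF1B-#2, lower in all 6 knockdown libraries.

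**Figure D2:**
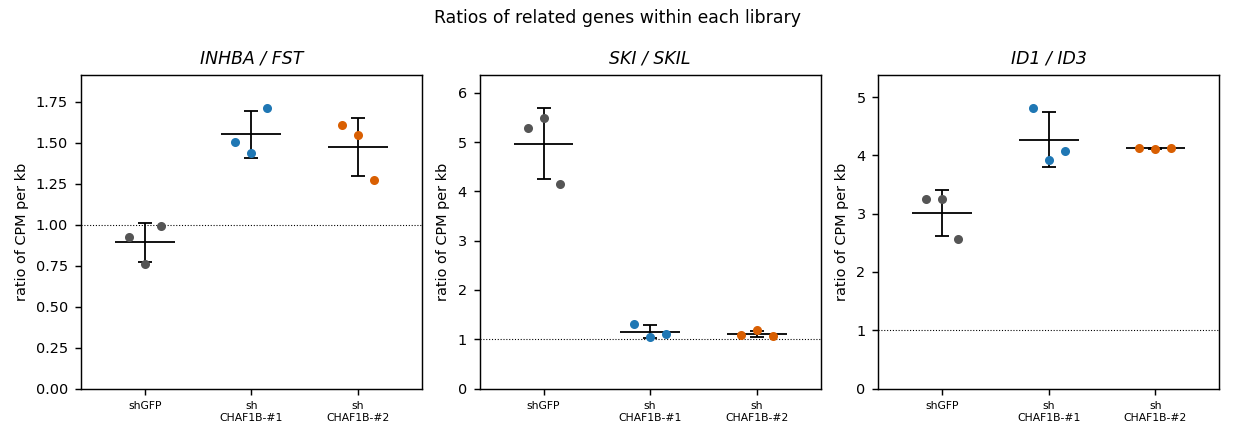
Ratio of CPM per kilobase of merged exons within each library for INHBA over FST, SKI over SKIL and ID1 over ID3 (vertical axes from 0; the dotted line is a ratio of 1); points are libraries, long bars means and whiskers SD of 3 libraries. INHBA over FST crosses 1 between control and knockdown, SKI over SKIL drops to between 1.05 and 1.31, and ID1 over ID3 is higher in all 6 knockdown libraries.

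TGIF1 (chr18:3411608-3459978, plus strand), a homeodomain corepressor, was slightly higher after knockdown, with groups that did not overlap. It was at 53.3, 53.7 and 52.5 CPM in shGFP, 60.9, 58.2 and 59.0 CPM in shCHAF1B-#1 and 60.4, 57.8 and 60.0 CPM in shCHAF1B-#2. The log2 fold change was 0.16 with each hairpin (SE 0.0451 and 0.0453), and the hairpins differed by less than 0.01 (95% interval -0.10 to 0.10, adjusted p = 0.992). Without shCHAF1B-#2 replicate 1 the change with the second hairpin was 0.14, and TGIF1 was then not among the called genes counted below. Added over all 5 brake genes per kilobase of merged exons, the level was 26.2 ± 1.48 CPM per kb in shGFP, 22.9 ± 0.461 with shCHAF1B-#1 and 22.6 ± 0.473 with shCHAF1B-#2. With this length the sum was led by SKI in the control. By the longest transcript TGIF1 was at 17.5 and SKI at 16.2 CPM per kb in shGFP with overlapping ranges, so the lead and the size of the fall depend on the length used.

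Another 25 genes that act on SMAD signalling were listed as other SMAD brakes, though not all of them restrain it. Of these 24 were tested, and 7 rose and 7 fell (median log2 fold change -0.01, as for all genes). These shares are close to the 29.2% up and 27.7% down of all genes, and they are not a count of brakes alone. SMURF2 (0.87, adjusted p = 1.7e-09) and SMURF1 (0.56, adjusted p = 3.5e-07), ubiquitin ligases that act with SMAD7 on the receptors, both rose. PMEPA1 (0.75) and the decoy receptor BAMBI (0.52), which are also targets of the pathways, rose as well. CTDSPL, which encodes a small phosphatase, fell (-0.70, adjusted p = 8.2e-09), as did TGIF2, the relative of TGIF1 (-0.35, adjusted p = 7.5e-05), and NEDD4L, another ubiquitin ligase (-0.35). RNF111, a ligase that marks SKI and SKIL for degradation and so acts against these brakes, rose by 0.31 (adjusted p = 2.2e-05).

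Of the ID genes, ID3 was lower in all knockdown libraries while ID1 and ID2 overlapped the control. ID3 (chr1:23557918-23559794, minus strand) was at 49.7, 53.6 and 44.4 CPM in shGFP, 41.5, 35.6 and 34.3 CPM in shCHAF1B-#1 and 33.6, 34.1 and 37.2 CPM in shCHAF1B-#2. The highest knockdown library, shCHAF1B-#1 replicate 1, came close to the lowest control library. The log2 fold change was -0.41 (SE 0.0815) and -0.49 (SE 0.0823), or 75.3% and 71.1% of control, and the hairpins differed by -0.08 (95% interval -0.26 to 0.10, adjusted p = 0.702).

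ID1 (chr20:31605283-31606515, plus strand) was at 110.7, 119 and 78.0 CPM in shGFP, 137, 95.7 and 95.9 CPM in shCHAF1B-#1 and 95.4, 96.4 and 105 CPM in shCHAF1B-#2. Its lowest and its highest value belonged to a control and a knockdown library, shGFP replicate 3 and shCHAF1B-#1 replicate 1, and the other libraries lay between. The log2 fold change was 0.09 (SE 0.148) with the first hairpin and -0.05 (SE 0.148) with the second. The sign for the mean turned with single control libraries, from -0.15 without shGFP replicate 3 to 0.14 without shGFP replicate 2. The hairpins differed by -0.14 (95% interval -0.46 to 0.18, adjusted p = 0.714).

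ID2 (chr2:8678845-8684453, plus strand) had between 31 and 52 counts in every library, from 1.19 to 1.82 CPM in shGFP and from 1.35 to 1.93 CPM after knockdown. The log2 fold changes of 0.18 (SE 0.203) and 0.11 (SE 0.206) were within their error. The hairpins differed by -0.06 (95% interval -0.50 to 0.38, adjusted p = 0.921).

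Within each library ID1 over ID3 per kilobase was 3.25, 3.25 and 2.56 in shGFP, 4.81, 3.92 and 4.08 in shCHAF1B-#1 and 4.13, 4.12 and 4.13 in shCHAF1B-#2. The ratio separated the groups although ID1 alone did not. ID1 made up 74.5 ± 2.80% (SD, n = 3) of the 3 ID transcripts per kilobase in shGFP, 80.4 ± 1.74% with shCHAF1B-#1 and 79.9 ± 0.109% with shCHAF1B-#2. The sum of the 3 ranged from 88.7 to 127 CPM per kb in shGFP and from 97.0 to 135 after knockdown, with overlap. These lengths were those of merged exons. By the longest transcript ID1 was at 83.3 and ID3 at 39.4 CPM per kb in shGFP. The sizes of the ratio, the share and the sum thus depend on the length used, while the separation of the groups by the ratio does not.

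Of the 10 genes, 5 have a longest transcript of over 57% GC: SKI (60.0%), SMAD6 (58.9%), SMAD7 (58.7%), ID1 (58.6%) and ID3 (57.2%). The 1270 genes with the highest GC content, set beside them here, begin at 61.5% and so do not include these 5. In shGFP replicate 3 all 5 lay below their group mean on the log2 scale, by 0.16, 0.55, 0.05, 0.37 and 0.15 in that order, and the median of the 1270 genes with the highest GC content lay 0.14 below. In shCHAF1B-#1 replicate 1 all 5 lay above it, by 0.09, 0.38, 0.15, 0.34 and 0.16, and the same 1270 genes 0.12 above. All 5 also lay on the side of that median in shGFP replicate 2, shCHAF1B-#1 replicate 2 and shCHAF1B-#2 replicate 1. The other 4 libraries had genes on both sides: SMAD7 lay 0.17 below its mean in shGFP replicate 1, where the other 4 lay above, and SMAD6 lay 0.16 above its mean in shCHAF1B-#1 replicate 3, where the other 4 lay below. In shCHAF1B-#2 replicates 2 and 3, ID1 and ID3 lay on the other side of their group mean from SKI. After subtracting the median change of genes of like GC content, 1 of the 10 genes' changes moved beyond its replicate spread, TGIF1 with the first hairpin, from 0.16 to 0.21. The part of GC content in the spread of ID1 was not tested.

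**Figure D3:**
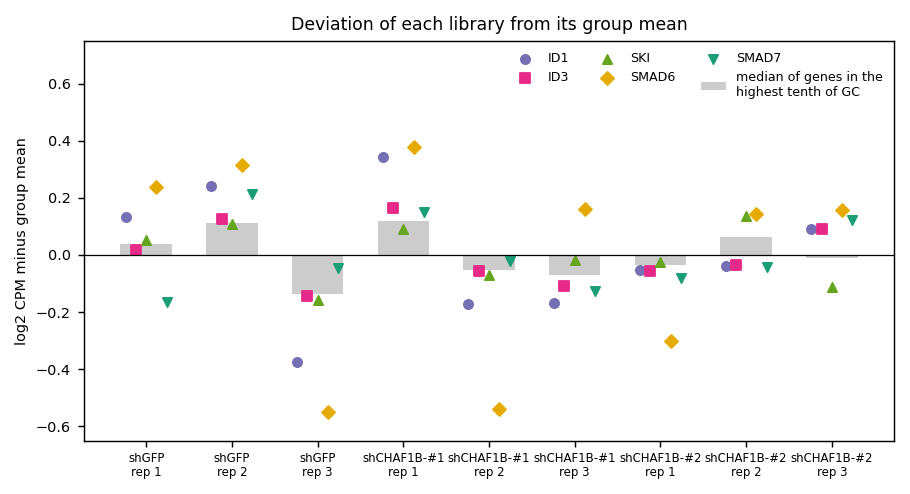
Log2 CPM of ID1, ID3, SKI, SMAD6 and SMAD7 in each library minus the mean of its group (vertical axis; points), with the median of the 1270 genes with the highest GC content (from 61.5%, above all 5 genes) as grey bars, for 9 libraries. In shGFP replicate 3 all 5 genes and the bar lie below 0 and in shCHAF1B-#1 replicate 1 all lie above 0, while in shGFP replicate 1, shCHAF1B-#1 replicate 3 and shCHAF1B-#2 replicates 2 and 3 the genes lie on both sides.

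ID proteins act by binding other HLH proteins. Of 12 listed HLH genes 9 were tested, and 3 rose and 2 fell (29.2% and 27.7% of all genes), with a median of 0.09. TCF3 (0.09, adjusted p = 0.245) and TCF12 (-0.03, adjusted p = 0.645), E proteins that bind ID proteins, did not pass, while TCF4, also an E protein gene, fell from 12.1 ± 2.02 CPM in shGFP to 8.69 ± 0.705 and 8.51 ± 0.665 (log2 fold change -0.50, adjusted p = 0.00074). BHLHE40 (1.22, adjusted p = 4.3e-11), HES2 (0.62, adjusted p = 2.7e-07) and HEY1 (1.21, adjusted p = 1.6e-05), all transcriptional repressors, rose. HES1 fell by a little (-0.16, adjusted p = 0.0392), and this call was lost, leaving 1 fallen gene in the list, with DESeq2, with no filter, with a threshold of 0.01, and without shGFP replicates 1 or 2, shCHAF1B-#1 replicates 2 or 3 or shCHAF1B-#2 replicates 1 or 2.

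Per kilobase of merged exons, ID1 was the most abundant of the 10 genes in shGFP at 83.3 CPM per kb, followed by ID3 (27.4), SKI (14.99), TGIF1 (6.47), SKIL (3.03), SMAD7 (1.66), FST (1.54), INHBA (1.36), ID2 (0.673) and SMAD6 (0.0542). Only SMAD7 and FST, as neighbours in this order, overlapped over the 3 libraries. With either CHAF1B hairpin TGIF1 came before SKI with overlapping ranges, and INHBA stood above FST and SMAD7, at 4.09 and 4.05 CPM per kb. FST and SMAD7 overlapped there too, as did SKI and SKIL with shCHAF1B-#2. The choice of length matters: by the longest transcript, 6 of the 10 levels in shGFP moved by at least their SD. TGIF1, which has 23 annotated transcripts, was then at 17.5 CPM per kb in shGFP and overlapped SKI. ID3 was at 39.4 and SMAD6 at 0.0894. INHBA was at 1.87, above FST, and overlapped both SMAD7 and FST.

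Counted over the list, 5 of the 10 genes (INHBA, FST, SKIL, SMAD7 and TGIF1) were called up and 2 (SKI and ID3) down with each hairpin and for their mean, and ID1, ID2 and SMAD6 were not called. The background was large: an adjusted p under 0.05 was reached with shCHAF1B-#1 by 53.2% of all tested genes (27.9% up, 25.2% down), with shCHAF1B-#2 by 51.3% (26.7% up, 24.6% down) and for the mean by 56.9% (29.2% up, 27.7% down). All 6 knockdown libraries lay above all 3 control libraries for 5 of the 10 genes and for 25.8% of all genes, and below for 2 of the 10 and 22.7% of all. Since the genes were chosen with these contrasts in view, nothing is read from the counts. Their median absolute log2 fold change was 0.62, beside 0.29 for all genes.

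**Figure D4:**
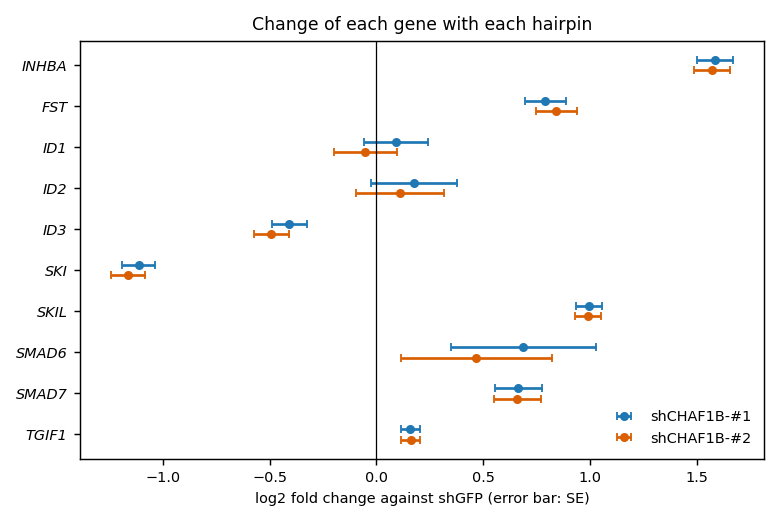
Log2 fold change against shGFP (horizontal axis) of each of the 10 genes with shCHAF1B-#1 and shCHAF1B-#2; points are edgeR estimates and bars their SE. The changes run from INHBA at 1.59 and 1.57 down to SKI at -1.11 and -1.16. ID1 lies on both sides of 0 (0.09 and -0.05), and SMAD6 is at 0.69 and 0.47 with the widest bars.

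The hairpins share their 3 control libraries, so the likeness of the 2 changes is not counted as evidence, and the direct difference was used. None of the 10 genes was called different between shCHAF1B-#2 and shCHAF1B-#1 by edgeR's quasi-likelihood test with Benjamini-Hochberg adjustment. Nor was any of the 16235 genes (0% called, and DESeq2 and limma-voom also called 0). An unadjusted p under 0.05 by the edgeR test was reached by 1800 genes, more than a share of 0.05. The lack of calls therefore does not show that the hairpins act alike on all genes. The intervals above bound the difference most tightly for TGIF1 and SKIL and leave it widest for SMAD6 (-0.92 to 0.48).

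Without shCHAF1B-#1 replicate 3, the library with B lymphocyte transcripts, the log2 changes for the mean of both hairpins were 1.57 for INHBA, 0.85 for FST, -1.13 for SKI, 0.99 for SKIL, 0.69 for SMAD7, 0.16 for TGIF1 and -0.42 for ID3. The same genes were called with and without it. ID3, which lymphocytes also express, was at 34.3 CPM in that library, within the range of the other knockdown libraries. The summed level of the 6 fibroblast markers present in the table of 10 listed moved with the knockdown, from between 34.4 and 37.2 CPM in shGFP to between 53.6 and 56.9 CPM, and its part in the results was not tested. That sum came from COL1A1 and FAP, while PDGFRA, PDGFRB, LUM and THY1 were each at or under 0.358 CPM in every library and LUM was at 0 in 5 of the 6 knockdown libraries.

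Of 23 listed targets of TGF-beta and activin, chosen with these contrasts in view like the other lists, 22 were tested, and 18 rose and 2 fell for the mean of both hairpins (29.2% and 27.7% of all genes), with a median of 0.81. ANGPTL4 (log2 fold change 2.52, adjusted p = 1.5e-11) and ITGB6 (1.42, adjusted p = 1.4e-11), an integrin chain that takes part in activating latent TGF-beta, rose. KLF11 fell (-0.65, adjusted p = 7.5e-06), and so did CYR61 by a little (-0.12, adjusted p = 0.0336), a call lost with DESeq2 and without shGFP replicate 1, shGFP replicate 2 or shCHAF1B-#1 replicate 3. COL4A1 (-0.11, adjusted p = 0.0867) and GADD45B (0.04, adjusted p = 0.672) did not pass.

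**Figure D5:**
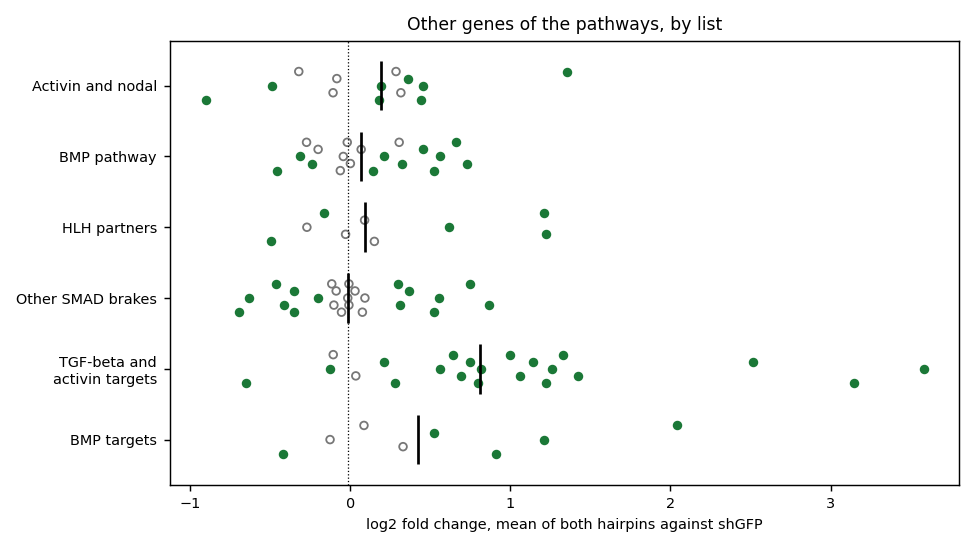
Log2 fold change for the mean of both hairpins against shGFP (horizontal axis) of the tested genes of 6 lists (rows); filled points have an adjusted p under 0.05, open points do not, black bars are list medians and the dotted line is the median of all genes, -0.01. The median of the TGF-beta and activin targets is 0.81 and that of the list of other SMAD brakes, not all of which restrain the signal, is -0.01.

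On the BMP side, 8 of 19 tested pathway genes (31 listed) rose and 3 fell (29.2% and 27.7% of all genes), with a median of 0.07. The type I receptor gene ACVR1 (0.66, adjusted p = 1.0e-07) and the type II receptor gene BMPR2 (0.46, adjusted p = 8.3e-06) rose, as did NBL1 (0.56, adjusted p = 4.7e-06), a secreted BMP antagonist. Of the SMADs that carry the BMP signal, SMAD1 fell with a log2 fold change of -0.46 (adjusted p = 2.5e-05) and SMAD5 with -0.31 (adjusted p = 4.7e-05). SMAD9 did not pass (-0.20, adjusted p = 0.093). RGMB, a BMP co-receptor, fell as well (-0.24, adjusted p = 0.0215). The ligand genes BMP2 (-0.02), BMP4 (-0.27) and BMP6 (0.31) did not pass, with adjusted p of 0.908, 0.338 and 0.271. BMP7, under the filter and named after its values were seen, was at 6.43 CPM in shCHAF1B-#1 replicate 3 and at most 0.179 CPM in the other 8 libraries.

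Of 14 BMP target genes beside ID1 to ID3, 8 were tested, and 4 rose and 1 fell (29.2% and 27.7% of all genes), with a median of 0.43. RUNX2 rose from 1.82 ± 0.372 CPM to 7.97 ± 0.428 and 7.10 ± 0.476 (log2 fold change 2.04, adjusted p = 9.2e-09), and HEY1 (1.21), DLX2 (0.91, adjusted p = 0.0034) and BAMBI (0.52, adjusted p = 0.00030) rose too. MSX2, a homeobox gene, fell (-0.42, adjusted p = 0.0049).

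The nearest protein-coding gene on each side was looked up by position among those passing the filter on low counts, whatever its change. Genes under the filter were passed over, so some gaps were long, such as 806 kb from INHBA to SUGCT and 1829 kb from TGIF1 to ZBTB14. Over all genes, 29.2% rose and 27.7% fell for the mean of both hairpins. INHBA lies between SUGCT (-0.49, adjusted p = 9.3e-05) and GLI3 (-0.25, adjusted p = 0.0040), both of which fell. ID3 lies between E2F2 (-0.64, adjusted p = 3.5e-06) and RPL11 (-0.28, adjusted p = 0.00036), which fell like ID3 itself. SKI lies between FAAP20, which rose (0.33, adjusted p = 0.0061), and MORN1, which did not pass (-0.26, adjusted p = 0.153). SKIL lies between PRKCI, which rose (0.20, adjusted p = 0.0017), and RPL22L1, which fell (-0.94, adjusted p = 3.1e-09). ID1 is followed by BCL2L1, which rose (0.63, adjusted p = 3.0e-07). TGIF1 lies between MYL12B (0.45, adjusted p = 1.1e-05) and ZBTB14 (0.31, adjusted p = 0.0068), which rose like TGIF1. Beside SMAD7, CTIF rose (0.19, adjusted p = 0.0035) and DYM did not pass (-0.01, adjusted p = 0.881). Beside FST, MOCS2 fell (-0.34, adjusted p = 0.00011) and NDUFS4 did not pass (0.06, adjusted p = 0.466). RSAD2, the neighbour before ID2 at a distance of 1781 kb, rose (2.28, adjusted p = 5.0e-06), and KIDINS220 after it did not pass (0.02, adjusted p = 0.762). ZWILCH, before SMAD6, fell (-0.41, adjusted p = 3.6e-05), and HM13, before ID1, did not pass (0.07, adjusted p = 0.235). The antisense genes INHBA-AS1 and ID2-AS1 overlap INHBA and ID2, and the library kit does not mark strand; both were counted at under 0.09 CPM on average in control and knockdown.

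For each gene the genes with the most similar profile, up to 2, over the 9 libraries were taken, by the root mean square difference of log2 CPM after centring on the shGFP mean, among genes of at least 1 CPM. For INHBA these were CCNG2 (0.0773) and ITGA2 (0.0800), for FST SPPL2A (0.0519) and RNF11 (0.0600), and for SKI WBP1L (0.0688) and ARHGDIA (0.0799). SKIL was nearest to IDS (0.0467) and TMEM44 (0.0484), SMAD7 to VAT1 (0.0584) and CCNJL (0.0666), and TGIF1 to ALG2 (0.0203). ID3 was nearest to ADCK2 (0.0360) and TTLL12 (0.0466), ID1 to NGRN (0.0554) and NR2F6 (0.0613). The nearest profiles of ID2 (RBM48, 0.113, and ZNF550, 0.114) and SMAD6 (PHLDA2, 0.210, and GCHFR, 0.213) were farther off, and these are the 2 genes with the fewest counts.

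A set of 3 overlapping 7-mers named by an earlier scan of these data was looked for in the longest transcript of each gene. The 7-mer GCCGTCA was in the coding sequence of INHBA. AAGCCGT was in that of SKI together with its shifted copy AGCCGTC. All 3 were in that of TGIF1. Of 12699 coding genes 21.0% held at least 1 of them, with a median log2 fold change of -0.04 for the mean of both hairpins, against 0.02 for the others. INHBA, SKI and TGIF1 had log2 fold changes of 1.58, -1.14 and 0.16 for that mean, and so lay on both sides of 0.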

How the data were processed

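The 9 libraries of MCF10A cells share 1 table of counts per gene. The values the authors deposited are raw counts without normalization. STAR 2.5.3a, HTSeq 0.8.0, DESeq2 1.18.1, hg38 and mm10 are named, with no roles, per the submitters' processing notes; RNA was prepared with TruSeq version 2, per the labels' protocols, which does not mark strand. Of 26186 identifiers 26149 matched GENCODE release 29 (GRCh38). The lowest row total was 7, and 0 rows named no gene.

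Counts were filtered with filterByExpr (minimum count 10, minimum total 15, proportion 0.7), scaled by TMM and fitted together with group as the only term, using edgeR's quasi-likelihood functions (edgeR 4.0.16, R 4.3.3), and p-values were adjusted by the Benjamini-Hochberg method over 16235 genes (threshold 0.05). The biological coefficient of variation was 6.24%. Replicates of a group differed by more than sampling noise. Fold changes are edgeR estimates. Alternatives were RLE scaling, DESeq2 1.42.0, limma-voom (limma 3.58.1), other filters, thresholds and lengths, the replicate number as a block, and leaving out each library; the comparison with genes of like GC content, in 20 bins, was added after seeing the data.

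The 10 genes and the lists were chosen with earlier results of these data known. Named from each list are up to 3 genes with the smallest adjusted p, members needed to describe counts of 5 or fewer and those that act directly with the 10 genes; PMEPA1, BHLHE40, BAMBI and HEY1 stand in more than 1 list. In the activin list ACVR2B, SMAD2, SMAD4, FSTL3 and GDF11 were named after their values were seen, for their known role. So were PMEPA1, BAMBI, TGIF2, NEDD4L and RNF111 in the list of other SMAD brakes. Some genes that this rule names are not reported here. The edgeR fit was tested on simulated counts, with changes put into a small share of genes in the shCHAF1B-#1 group. In the data 56.9% of genes were called for the mean, a setting that the simulation did not cover. The other steps were not tested on simulated data.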

Additional observations from a re-analysis of the deposited data

How the results depend on the processing

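For the 10 genes, 655 of 656 recomputed log2 changes moved by less than their spread or kept their side of the threshold, and 1 moved, TGIF1 with the first hairpin relative to genes of like GC content (0.21 against 0.16). Changes against shGFP were judged by the spread and hairpin differences by the threshold. The call of SMAD6 gained without shCHAF1B-#1 replicate 2 and that of TGIF1 lost without shCHAF1B-#2 replicate 1 are thus not counted as moves. Nor is the turn in sign of ID1 for the mean, from -0.15 to 0.14. Counts of called genes moved by over 1.5 times only when a change of at least 2-fold was required as well: then 1 of the 10 genes was called up (INHBA) and 1 down (SKI) in each comparison, SKIL falling just short, and over all genes 1030 up and 342 down with shCHAF1B-#1, 897 and 378 with shCHAF1B-#2, and 948 and 337 for the mean, by the construction of that threshold. Of 204 recomputed list counts 27 moved. The fit with the replicate number as a block (replicate block) called 5 of the 10 genes up and 2 down, as without it, and 4599 genes up and 4314 down for the mean. Same-numbered libraries did not deviate together (correlations -0.14 to 0.10, other pairs -0.22 to 0.22), so the numbers were not taken as pairs. SMAD6 had 8 to 24 counts per library and ID2 31 to 52, the fewest of the 10 genes; depth and replicate spread were not separated.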
